A study of Homo sapiens with 12 samples.

Results

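The data described are the 3 arrays of control RCC4 cells, out of 12 arrays in the study. They were chosen by their labels alone, as every array of cells that received the non-targeting control siRNA (siNT) and then the vehicle DMSO. RCC4, an established line from a human clear cell carcinoma of the kidney, has no functional VHL. It was grown in DMEM with 10% heat-inactivated serum, given siNT for 2 days and then DMSO for 7 hours before RNA was extracted. The other 9 arrays came from cells with an siRNA against WWTR1 (siTAZ), with 1 µM erastin or with both, and are not compared here. The submitters describe the replicates of a group as biological triplicates. The group is therefore 1 line after a transfection and a solvent, not an untouched culture, and values from 1 line do not stand for clear cell carcinoma in general.

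Each array gave log2 signals for 22277 probe sets. Probe sets that name 1 gene covered 11963 genes, and each gene was read from whichever of its probe sets had the highest mean on the 3 arrays. A gene is given by its log2 signal on each array and by its percentile, which is its place among the 11963 genes by mean signal. Probe sets differ in how strongly they bind, so a percentile orders array signals and not numbers of transcripts, and no gene is called more abundant than another. Genes are called bright in the top 10% by mean, a share of 10.0% by construction. They are called dim where they were not above a background reference on all 3 arrays, which held for 34.5% of genes. The reference of an array is the 90th percentile of 88 measured markers of unrelated cell types, and it was 5.59, 5.64 and 5.65 on replicates 1 to 3. The remaining genes are called middle. Above the reference on all 3 arrays were 7836 genes, or 65.5%, and 31.9% were at or below it on all 3. At the upper limit ALDH1A1 lay just inside at 10.684 and TFE3 just outside at 10.683. At the lower limit SCNN1A, at 5.65, was the lowest gene above the reference on all arrays, and AP1AR, at 5.94, was the dim gene with the highest mean.

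The 3 arrays were close to each other. Array medians lay between 6.49 and 6.52, pairs of arrays correlated at a Pearson r of 0.9976 to 0.9985 over probe sets, and the median SD of genes above the reference was 0.067. The 3′ minus 5′ signal of the actin control probe sets, a sign of RNA integrity or labelling, was 2.40, 2.66 and 2.97 on replicates 1, 2 and 3. For GAPDH it was 0.18, 0.25 and 0.12. With 3 arrays in 1 group there is no contrast to test, so values are given with their spread and with no p-value, and the number of arrays limits their precision.

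Clear cell renal carcinoma arises from kidney tubule epithelium, and the loss of VHL is its founding lesion in most tumours. The VHL protein is the part of a ubiquitin ligase that recognises hydroxylated HIF alpha subunits and marks them for destruction, so that without it HIF targets such as glucose transporters, glycolytic enzymes and VEGFA are transcribed in normal oxygen. Ferroptosis is an iron-dependent death by lipid peroxidation, held back by cystine import, glutathione and GPX4, and clear cell carcinoma lines are known for their sensitivity to it.

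Of 694 listed genes in 5 themes, 599 were measured, and 159 of these were bright, 274 middle and 166 dim. The metabolism theme had the highest median percentile, 80.8, with 73 of 183 genes bright. The VHL loss theme followed at 78.5 with 21 of 80 bright, and ferroptosis control at 72.1 with 30 of 104. Adhesion had a median percentile of 46.2 with 34 of 165 bright, and renal lineage one of 39.1 with 15 of 104. Dim genes numbered 69 in adhesion and 45 in renal lineage, against 9 in VHL loss, 24 in metabolism and 20 in ferroptosis control. By construction the median percentile over all genes is 50.0, and 10.0% of them are bright. Dim genes make up 34.5% of all genes, and each list count below is to be read beside these shares. Some genes stand in more than 1 list. Adhesion members such as PECAM1, CDH5 and ITGB2 were also among the markers that set the background reference. Their place against it is therefore no independent reading.

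**Figure D1:**
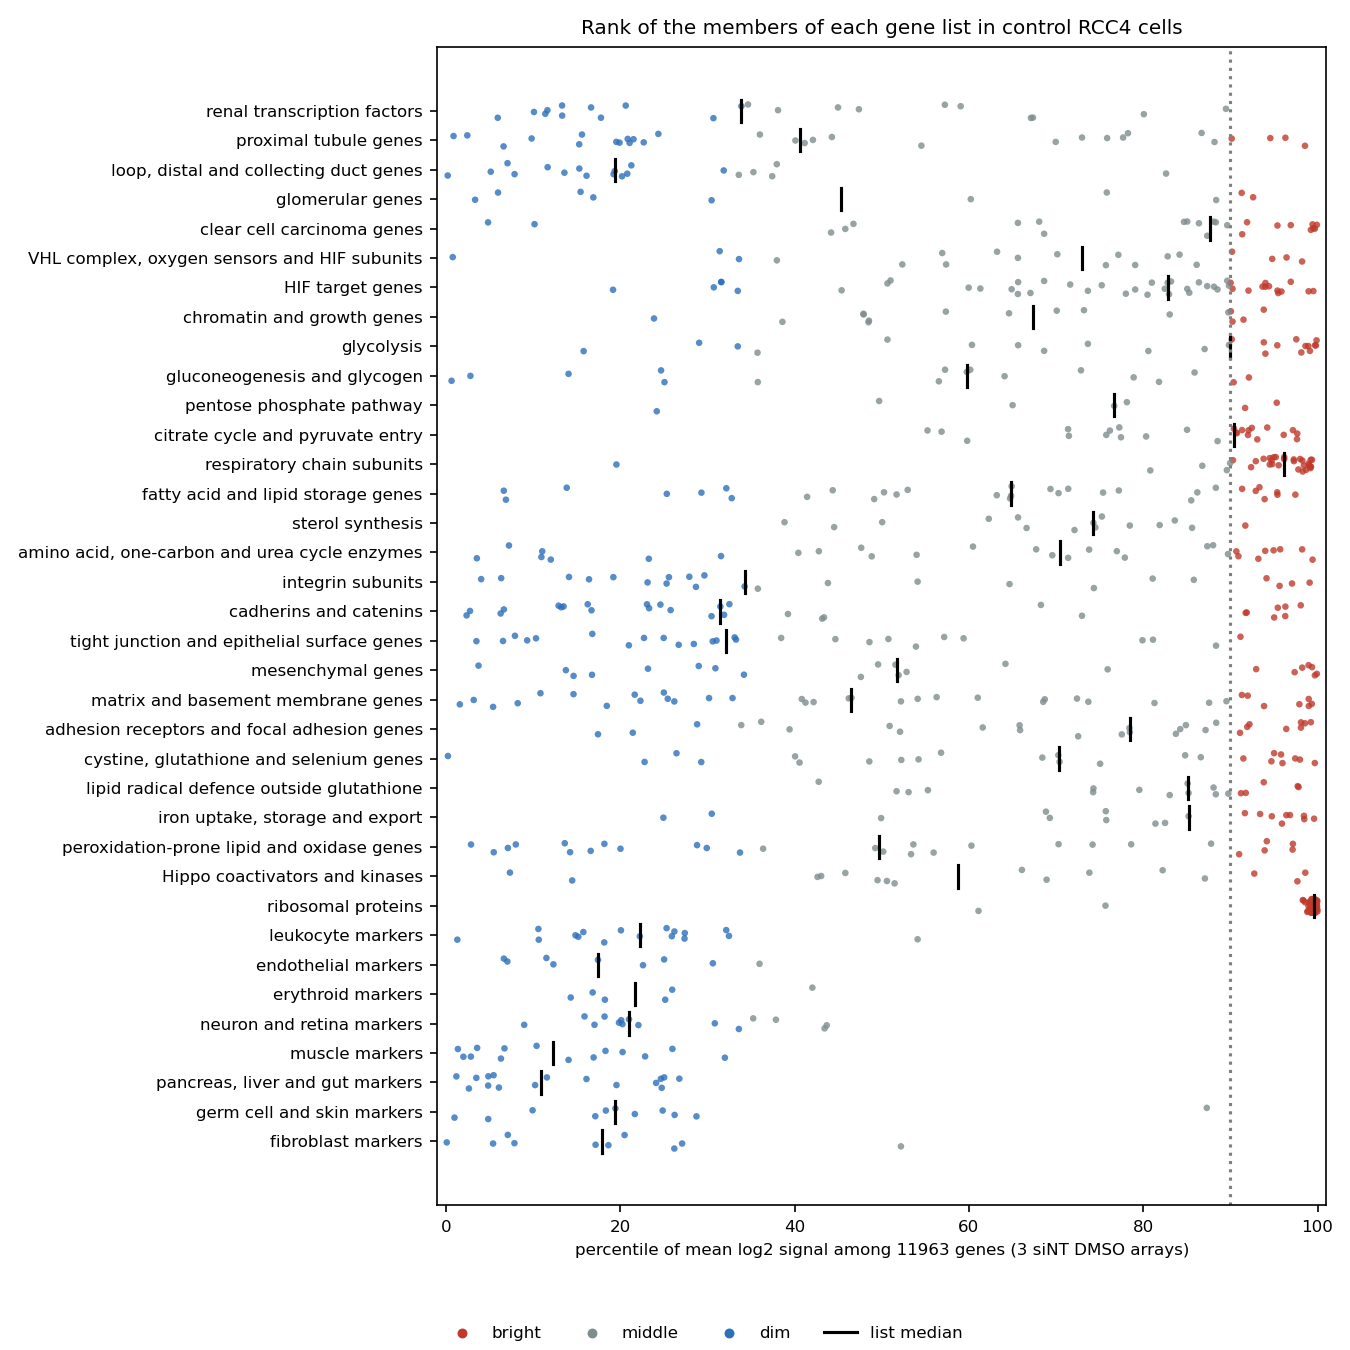
Percentile of mean log2 signal of each gene in each list on the 3 control arrays, one point per gene, coloured by band, with a black bar at the list median and a dotted line where the top 10% begins. Respiratory chain subunits (28 of 33 bright, median 96.2) lie to the right, and loop, distal and collecting duct genes (median 19.4) lie to the left beside the markers of other cell types.

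The markers of unrelated cell types served as the floor and as a check of the culture. None of 88 was bright and 80 were dim, a share that the reference itself largely sets. PTPRC, the pan-leukocyte phosphatase, read 3.82, 3.62 and 3.81, and ALB, the liver's serum albumin, read 3.06, 3.05 and 3.44. The 8 middle ones were KRT10 at a mean of 10.39, ITGB2 at 7.60, GRIN1, SLC17A7, HBB, SNAP25, TEK and NRL, and KRT10 is a keratin that is not limited to skin. Of 10 fibroblast markers 9 were dim and COL1A1, a fibrillar collagen chain, was middle at 7.45. In a bulk sample, fewer cells of a type and less RNA per cell cannot be told apart.

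The 20 genes with the highest signal were EEF1A1, RPL41, RPL37A, RPS23, TUBA1B, TMSB10, RPS14, TPT1, RPL23A, TGFBI, RPL39, PPIA, ACTB, GAPDH, TUBA1C, RPS18, RPS21, RPL7, RPS10 and RPL30. EEF1A1, the elongation factor that brings aminoacyl-tRNA to the ribosome, read 14.39, 14.39 and 14.31. TGFBI, a secreted matrix protein induced by TGF-beta and often raised in clear cell carcinoma, read 14.06, 14.08 and 14.03. Of the 20, 11 encode ribosomal proteins, and so do 40 of the 100 with the highest signal. Of the 51 ribosomal protein genes measured, 49 were bright and 2 were middle, RPL27A at 9.29 and RPLP2 at 8.17. Of the 20, 10 rested on probe sets that can also bind related sequences (x_at), and ribosomal protein genes have many near-identical copies in the genome, so these signals may be shared with them.

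Many genes of the translation machinery start with a C followed by a run of C and T, the 5′ terminal oligopyrimidine (TOP) element through which mTOR controls their translation. The start sites of 4 bright ribosomal protein genes and of EEF1A1 and TPT1 are shown because they carry this element. They are from RefSeq on GRCh38.p14, 5′ to 3′ on the gene's strand, from 25 bases before the listed start to 15 bases into the transcript, and the capitals mark the run that begins at the listed start.
RPL41 (chr12:56116608-56116647, plus strand): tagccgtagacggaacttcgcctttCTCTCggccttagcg
RPL37A (chr2:216498819-216498858, plus strand): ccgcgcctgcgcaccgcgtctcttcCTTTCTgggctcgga
RPS23 (chr5:82278340-82278379, minus strand): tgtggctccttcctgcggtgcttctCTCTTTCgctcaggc
RPS14 (chr5:150449725-150449764, minus strand): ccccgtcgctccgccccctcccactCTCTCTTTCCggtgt
EEF1A1 (chr6:73521018-73521057, minus strand): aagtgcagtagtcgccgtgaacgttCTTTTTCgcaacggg
TPT1 (chr13:45341169-45341208, minus strand): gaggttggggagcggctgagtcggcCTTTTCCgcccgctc

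Another 3 bright genes, chosen for contrast after their signals were seen, lack the run at their listed start.
TGFBI (chr5:136028963-136029002, plus strand): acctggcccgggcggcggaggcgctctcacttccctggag
GAPDH (chr12:6535239-6535278, plus strand): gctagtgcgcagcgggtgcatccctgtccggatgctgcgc
VIM (chr10:17228216-17228255, plus strand): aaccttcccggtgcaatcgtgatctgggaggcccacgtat

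Promoters from RefSeq matched 9563 of the 11963 genes, and the 6810 with 1 listed start were searched. A C at the start followed by at least 4 bases that are each C or T was found in 336 of them, or 4.93%. The share was 12.9% in bright genes, 4.56% in middle and 3.19% in dim genes. Among ribosomal protein genes it was 31 of 39, or 79.5%, and among bright genes without them it was 9.12%. The TATA box letters TATAAA on the gene's strand, between 40 and 16 bases before the start, were found in 4.35% of all promoters. Dim genes held it in 8.58%, middle genes in 1.98% and bright genes in 3.51%. The median promoter held 22 CG dinucleotides in both bright and middle genes and 9 in dim genes. A match describes letters in this window and is no measured site.

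Renal lineage was read first in its transcription factors. PAX8, which specifies the nephric lineage and remains on in most renal carcinomas, read 10.64, 10.60 and 10.59, or 10.61 ± 0.025 (SD, n = 3), at percentile 89.5. PAX2, its paralog in the developing kidney, read 7.95, 8.10 and 7.97 at percentile 59.0. LHX1, an early nephron factor, read 5.61, 5.69 and 5.93 at percentile 34.6. PAX8 thus lay just under the bright band and LHX1 just over the reference. Of 21 factors measured none was bright, 10 were middle and 11 were dim, with a median percentile of 33.9. The other factors high in this list were HOXB7, a homeobox gene of the ureteric bud, at 9.67, EMX2 at 8.63, SALL1 at 8.62 and PAX2 as above. The lowest were POU3F3, a factor of the loop of Henle, at 3.82, FOXI1, that of intercalated cells, at 3.84, HOXD10 at 3.70 and TFAP2B, a distal nephron factor, at 3.25. With all its probe sets averaged, the PAX8 percentile was 62.4.

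Of 30 proximal tubule genes, 4 were bright, 13 middle and 13 dim, a dim share of 43.3% beside 34.5% of all genes, with a median percentile of 40.6. VCAM1, an adhesion molecule of injured tubule cells and of endothelium, read 12.64, 12.66 and 12.58, at percentile 98.6. CDH6, a cadherin of the proximal tubule lineage, read 11.84, 11.93 and 11.79, at percentile 96.3. PDZK1IP1, a small membrane protein of the brush border, read 11.38, 11.34 and 11.62. These 3 were in the top 10% of genes on each array taken alone. SLC17A3, an organic anion and urate transporter, was bright by its mean of 10.71 but lay at percentile 89.4 on replicate 3. CRYAB, a small heat shock protein, came next at 10.47 and was middle.

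Among the 13 dim members were genes of protein and water uptake. LRP2 (megalin), the endocytic receptor for filtered protein, read 2.77, 2.77 and 2.90 at percentile 2.43. CUBN (cubilin), its partner, read 4.66, 4.42 and 4.49, and AQP1, the tubule's water channel, read 4.25, 4.35 and 3.98. All 3 lay below the reference on every array. Also dim were ALPL, a brush border phosphatase, at 3.67, ANPEP, a brush border aminopeptidase, at 3.32, and SLC13A1, a sulfate transporter, at 2.56. The promoters of the list held few CG dinucleotides, a median of 4 over the 17 with 1 listed start against 20 over all genes.

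Few genes of the later nephron segments were above the reference. Of 19 loop, distal and collecting duct genes, 0 were bright, 5 middle and 14 dim, with a median percentile of 19.4. SLC12A1, the loop diuretic target NKCC2, read 2.48, 2.48 and 2.26, and KCNJ1, the potassium channel beside it, averaged 3.37. The middle genes were KCNJ16, an inward rectifier potassium channel, at 9.89, and CLDN16, AQP3, AQP2 and SCNN1A, which averaged between 5.65 and 6.04, near the reference. Of 10 glomerular genes 2 were bright, 3 middle and 5 dim. The bright ones were CD2AP, an adaptor at the slit diaphragm that other cells also use, at 11.09, and PTPRO, a podocyte phosphatase, at 10.87. TCF21, a podocyte transcription factor, was dim at 3.26, and PLA2R1 was dim at 2.95.

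Genes known to be raised in clear cell carcinoma had a median percentile of 87.7, with 9 of 24 bright, 13 middle and 2 dim. VIM, the mesenchymal intermediate filament shared by most clear cell tumours, read 13.62, 13.65 and 13.50. IGFBP3, a secreted binding protein for insulin-like growth factors, read 13.38, 13.39 and 13.35. NNMT, which methylates nicotinamide, read 13.23, 13.25 and 13.30. These 3 and TGFBI and CAV1 were the highest of the list, at percentiles of 99.2 to 99.9. At the other end ENPP3, an ectonucleotidase of clear cell tumours, read 3.03, 3.07 and 3.23, and FABP7 averaged 3.70, both dim. SLC6A3, the dopamine transporter, which clear cell tumours are known to express, was middle at 6.67, and TRIM9 at 6.83.

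**Figure D2:**
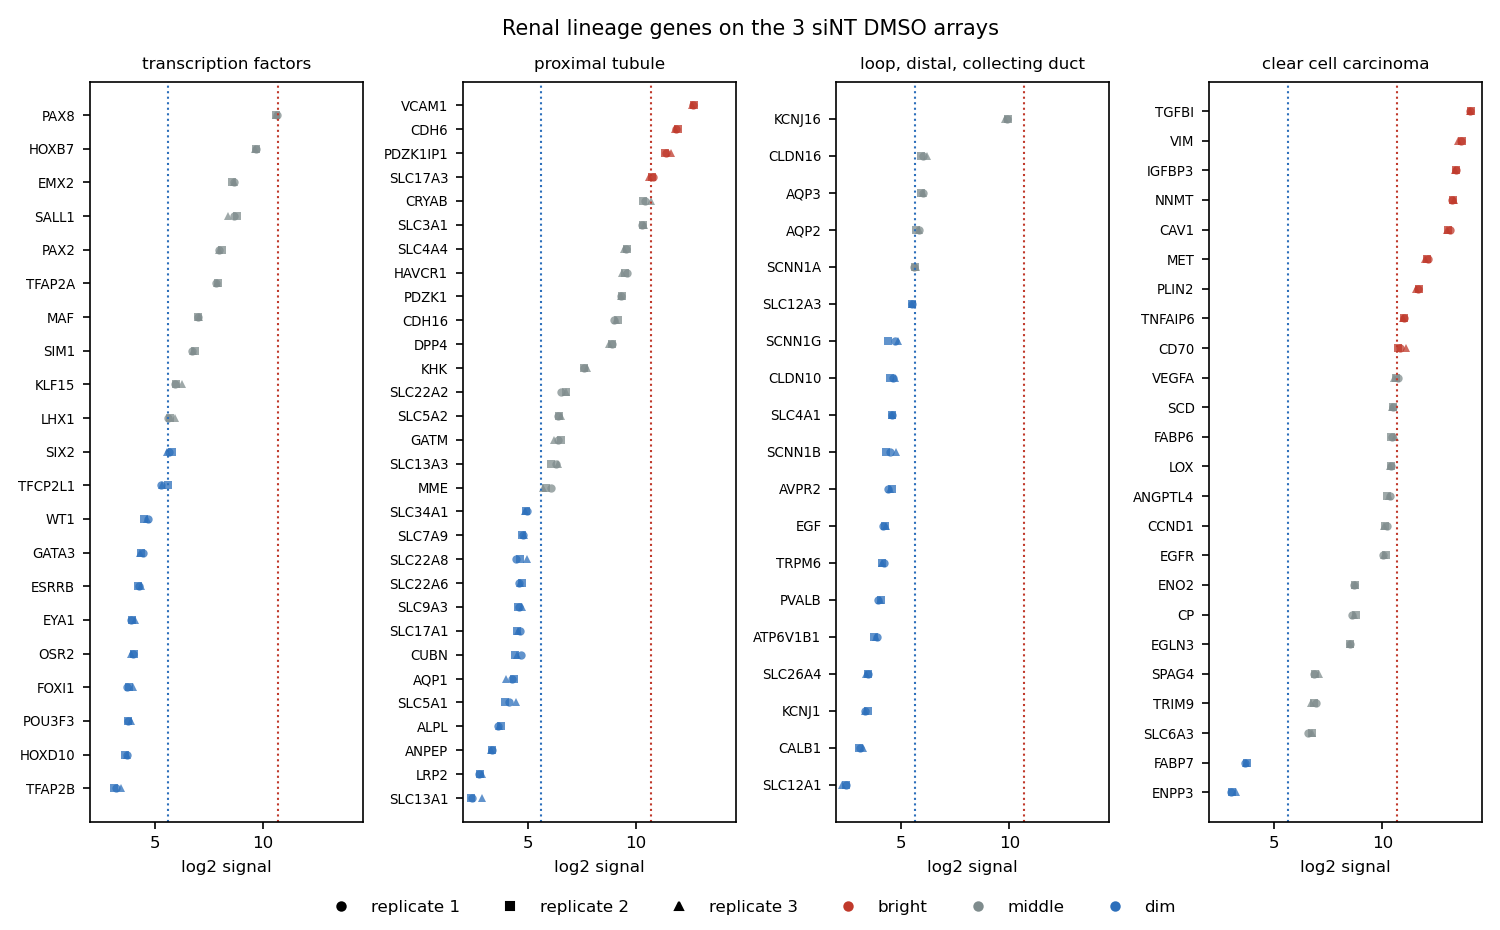
Log2 signal of renal lineage genes on the 3 control arrays, one row per gene and one symbol per replicate. Dotted lines mark the mean background reference, 5.63, and the lower limit of the bright band, 10.68. PAX8, CDH6 and VCAM1 sit to the right and LRP2 and SLC12A1 to the left.

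The VHL pathway was described from its ligase to its targets. VHL itself read 2.67, 2.54 and 2.43, at percentile 0.761, and lay below the reference on all 3 arrays. It has 1 probe set here, and nothing in the files gives what that probe set reads in a cell with intact VHL. Its partners were bright: ELOC (elongin C) at 12.47, 12.43 and 12.54, ELOB (elongin B) at 11.83, 11.80 and 12.05, and RBX1, the ring finger subunit of the ligase, at a mean of 11.50. CUL2, the scaffold, was middle at 9.29, and was named outside the naming rule because it belongs to the ligase.

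Of the HIF subunits, EPAS1 (HIF-2alpha), which drives clear cell tumours, read 10.71, 10.72 and 10.70, at percentile 90.2. HIF1A read 9.36, 9.59 and 9.31, at percentile 77.1, and ARNT, the common partner, read 7.36, 7.54 and 7.46, at percentile 52.4. Each was above the reference on every array, and these probe sets do not say which subunit had more transcripts. The second EPAS1 probe set averaged 4.32, and with the mean of both the EPAS1 percentile was 60.3. HIF3A was dim at 5.47. EGLN1 and EGLN3, the oxygen-dependent hydroxylases that mark HIF for VHL, averaged 9.58 and 8.49 and were middle. Of the 20 genes of this list 4 were bright, 13 middle and 3 dim, with a median percentile of 72.9.

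HIF target genes had a median percentile of 82.8, with 13 of 47 bright, 29 middle and 5 dim. The highest were IGFBP3, as above, then AXL, a receptor tyrosine kinase, at 12.87, 12.85 and 12.88, and MET, the hepatocyte growth factor receptor, at 12.10, 12.05 and 11.95. BNIP3, a mitophagy receptor, averaged 11.75, and LOXL2, a collagen crosslinking enzyme, averaged 11.65. VEGFA, the angiogenic factor, read 10.72, 10.62 and 10.55 at percentile 89.6, just outside the bright band. SLC2A1 (GLUT1), the glucose transporter, read 11.32, 11.34 and 11.36, at percentile 94.0, and PLIN2, which coats lipid droplets, read 11.66, 11.68 and 11.57. CA12, a membrane carbonic anhydrase, averaged 10.16, ANGPTL4, a lipoprotein lipase inhibitor, averaged 10.29, and ADM, the vasodilator adrenomedullin, averaged 9.96. With all probe sets averaged, percentiles were 68.4 for VEGFA, 87.0 for SLC2A1, 68.0 for PLIN2 (95.4 in the main ranking) and 75.1 for CA12 (85.3). ANGPTL4 and ADM, with 1 probe set each, rose from 86.4 to 90.7 and from 83.2 to 88.5. The second PLIN2 probe set averaged 4.52, and the other LOXL2 probe sets averaged 6.57 and 4.12. Not all targets were high. CXCR4, a chemokine receptor, read 4.41, 4.43 and 4.65, and EPO (erythropoietin) read 5.30, 5.42 and 5.52. PDK3 and PFKFB4 were also dim, at 5.49 each. CA9 and NDUFA4L2 were not analysed here. On replicate 3, 31 of the 42 targets above the reference had their lowest value, against 44.7% of all such genes. The actin 3′ minus 5′ signal was highest on that array and the GAPDH one lowest, and their part in this was not tested.

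HIF binds DNA at a core of CGTG, most often preceded by A or G. The letters ACGTG on either strand within 250 bases before the start were found in 15 of 29 HIF targets with 1 listed start, or 51.7%, and in 22.1% of all promoters. The share was 29.2% in bright genes, 24.2% in middle and 16.4% in dim genes. Among the targets it was 4 of 8 bright ones and 11 of 21 others, or 52.4%. The letters GCGTG were found in 62.1% of the targets and 42.2% of all promoters. Targets were listed because HIF is known to act on them, so this share describes the list. The 5 targets with the highest signal among those with a match are shown so that the letters can be seen in place. They are from RefSeq on GRCh38.p14, 5′ to 3′ on the gene's strand, and the capitals mark ACGTG or its reverse complement CACGT, which overlap where CACGTG is written.
BNIP3 (chr10:131982024-131982083, minus strand): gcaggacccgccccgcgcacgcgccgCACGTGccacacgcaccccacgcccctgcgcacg
PLIN2 (chr9:19127528-19127587, minus strand): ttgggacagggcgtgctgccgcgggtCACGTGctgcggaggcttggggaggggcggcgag
PLOD2 (chr3:146161298-146161357, minus strand): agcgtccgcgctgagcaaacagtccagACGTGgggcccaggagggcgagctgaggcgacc
BHLHE40 (chr3:4979261-4979320, plus strand): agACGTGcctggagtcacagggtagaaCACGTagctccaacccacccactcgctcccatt
FAM162A (chr3:122384071-122384130, plus strand): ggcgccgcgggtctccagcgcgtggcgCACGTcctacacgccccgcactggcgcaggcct

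The signals of these 5 genes were 11.75 for BNIP3, 11.64 for PLIN2, 11.42 for PLOD2, 10.72 for BHLHE40 and 10.47 for FAM162A as means of 3 arrays. PLOD2 hydroxylates collagen lysines, and BHLHE40 is a transcriptional repressor induced by hypoxia. PLOD2, BHLHE40 and FAM162A were named for their match, after their values were seen. All the windows shown lie within 250 bases before the listed starts.

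**Figure D3:**
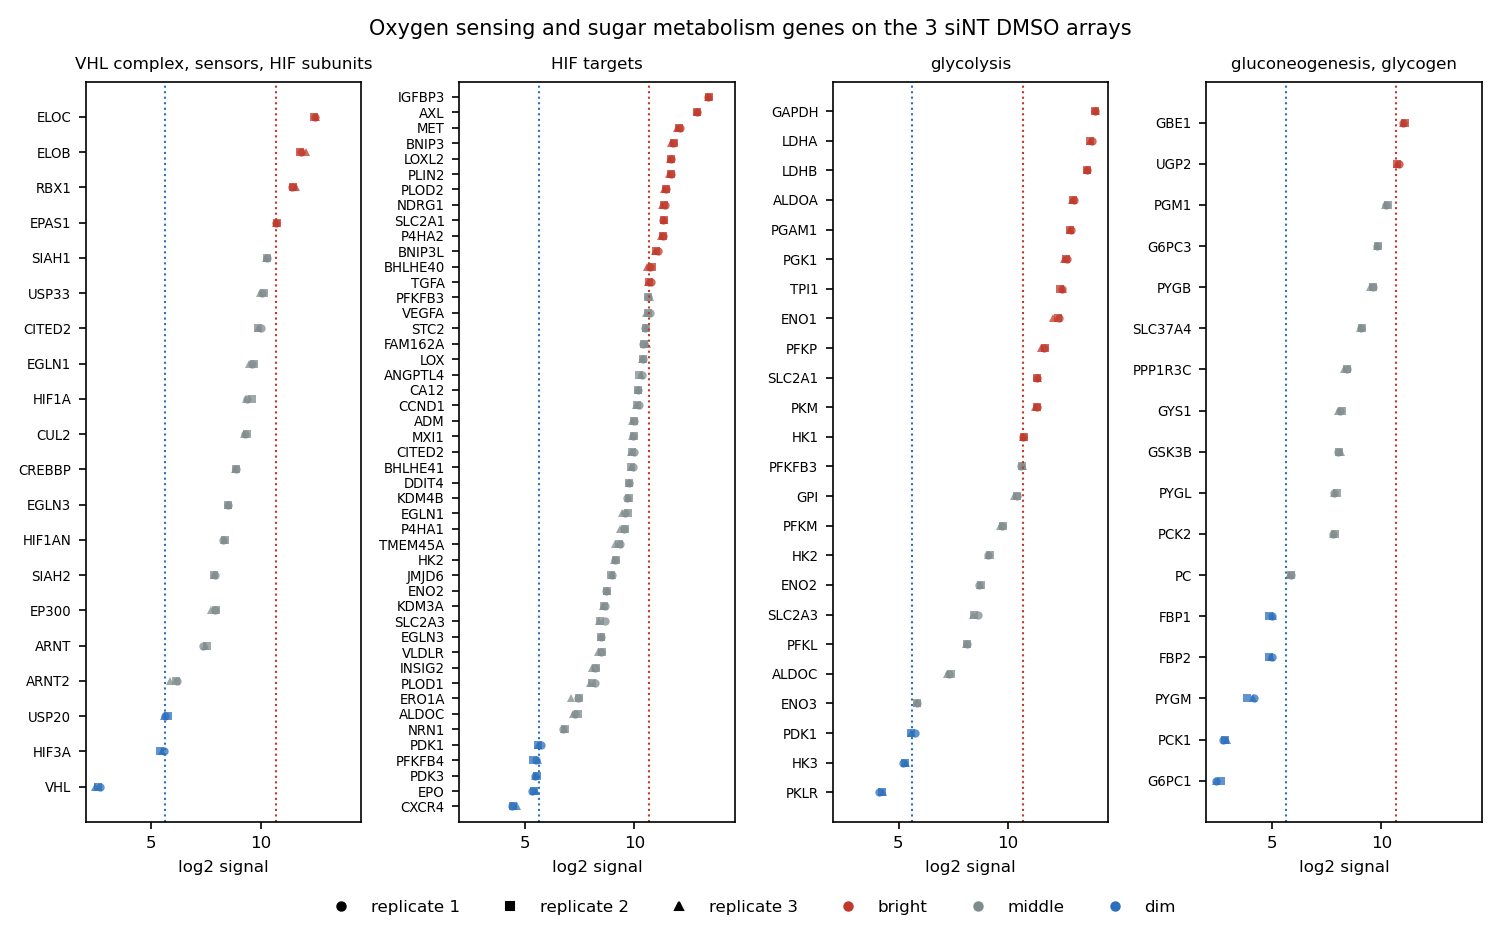
Log2 signal of the VHL complex, oxygen sensors and HIF subunits, HIF target genes, glycolysis genes and gluconeogenesis and glycogen genes on the 3 control arrays, one symbol per replicate, with dotted lines at the mean background reference and at the lower limit of the bright band. VHL is at the far left, below the reference, and ELOC, IGFBP3 and GAPDH are at the right of their panels, and PCK1 and G6PC1 at the left of theirs.

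Of the 16 chromatin and growth genes that are mutated in clear cell carcinoma, 4 were bright, 11 middle and 1 dim. NFE2L2 (NRF2), the antioxidant transcription factor, read 11.32, 11.32 and 11.28, and MYC averaged 10.91. PBRM1, the chromatin remodelling gene most often lost after VHL, read 6.18, 5.96 and 6.14, above the reference on each array, and its second probe set averaged 2.34. CDKN2A, the cell cycle inhibitor, read 4.88, 4.87 and 4.88 and was dim.

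In metabolism most enzymes of glucose breakdown were bright or middle. Of 24 glycolysis genes 12 were bright, 9 middle and 3 dim. GAPDH read 13.992, 13.999 and 14.018, LDHA, which makes lactate, read 13.83, 13.77 and 13.76, and LDHB averaged 13.61. ALDOA averaged 12.98 and PGAM1 averaged 12.85, so that the 5 highest were at percentiles of 98.9 to 99.9. The dim ones were the liver pyruvate kinase PKLR at 4.21, the leukocyte hexokinase HK3 at 5.28 and PDK1, which blocks pyruvate entry into mitochondria and is a HIF target, at 5.75, 5.59 and 5.59 around the reference.

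Of 17 genes of gluconeogenesis and glycogen 2 were bright, 10 middle and 5 dim, a dim share of 29.4% beside 34.5% of all genes. FBP1, fructose-1,6-bisphosphatase, whose loss is known in clear cell carcinoma, read 4.98, 4.88 and 5.03. PCK1, the cytosolic PEP carboxykinase, read 2.77, 2.85 and 2.95, and G6PC1, the glucose-6-phosphatase of kidney and liver, read 2.44, 2.68 and 2.41. These 3 were below the reference on every array. The mitochondrial PCK2 read 7.77, 7.87 and 7.80 and was middle, as was G6PC3, the widely expressed phosphatase, at 9.82. GBE1, the glycogen branching enzyme, was bright at 10.98, 11.07 and 10.99.

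The mitochondrial lists had the highest median percentiles in metabolism. Of 33 respiratory chain subunits 28 were bright, 4 middle and 1 dim, with a median percentile of 96.2. ATP5F1A, the alpha subunit of ATP synthase, read 13.18, 13.21 and 13.12, COX6A1 averaged 13.08 and COX7C averaged 13.06. The dim one was COX7A1, the muscle isoform, at 4.56, 4.47 and 4.56. The chain's genes were highest on replicate 3 in 26 of the 32 above the reference, with a median deviation there of 0.08, and ribosomal protein genes in 48 of 51, against 34.4% of all genes above the reference. The actin 3′ minus 5′ signal was highest on the same array and the GAPDH one lowest, and their part in this was not tested. Of 25 citrate cycle and pyruvate entry genes 13 were bright, 12 middle and 0 dim, with MDH1 at 12.28, MDH2 at 12.27 and MPC2, a mitochondrial pyruvate carrier subunit, at 12.10.

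In lipid metabolism 7 of 32 fatty acid genes were bright, 18 middle and 7 dim. ACLY, which makes cytosolic acetyl-CoA, averaged 12.21, and SCD, which makes monounsaturated fatty acids, read 10.50, 10.50 and 10.45. CD36, a fatty acid receptor, averaged 3.35, ACADL averaged 3.32 and PPARA, the regulator of fatty acid oxidation, averaged 4.03, all dim. Of 15 sterol synthesis genes 1 was bright, FDPS at 10.95, 14 were middle and 0 dim. SREBF2, the regulator of sterol synthesis, was middle at 7.26.

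Amino acid, one-carbon and urea cycle enzymes were spread widely, 8 of 30 bright, 15 middle and 7 dim. NNMT stood first, as above, then TYMS, thymidylate synthase, at 12.48, MTHFD2 at 11.72 and SHMT2 at 11.54, both of mitochondrial one-carbon metabolism. The second TYMS probe set averaged 4.21, below the reference. SHMT1, the cytosolic counterpart of SHMT2, was dim at 3.78. ASS1, argininosuccinate synthase, read 9.49, 9.53 and 9.45, and ARG2, the mitochondrial arginase, read 7.56, 7.58 and 7.65, both middle. OTC and ARG1, the liver enzymes of the cycle, averaged 3.39 and 3.78, and TDO2, which degrades tryptophan, averaged 2.97. In the pentose phosphate pathway 2 of 7 genes were bright, TALDO1 at 11.62 and TKT at 10.94, and 1, TKTL1, was dim at 4.89.

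Adhesion genes were read from the cell junctions outwards. CDH1 (E-cadherin), the epithelial junction protein, read 3.47, 2.97 and 3.41 at percentile 6.26, and its second probe set averaged 3.03. CDH2 (N-cadherin), which both mesenchymal and proximal tubule cells carry, read 11.89, 11.84 and 11.83, at percentile 96.3. The catenins that link cadherins to actin were bright, CTNNA1 at 12.43 and CTNNB1 at 11.65, and so was DSG2, a desmosomal cadherin, at 11.55. Of 29 cadherins and catenins 7 were bright, 5 middle and 17 dim, a dim share of 58.6% beside 34.5% of all genes. DSG1 and DSC3, skin desmosomal cadherins, averaged 2.79 and 2.85, and CDH5, that of endothelium, averaged 3.32. CDH5 was also a marker behind the reference, which largely sets its dim call. In this list 11 of the 12 members above the reference had their lowest value on replicate 3, against 44.7% of all genes above it. The actin 3′ minus 5′ signal was highest on that array and the GAPDH one lowest, and their part in this was not tested.

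Of 26 tight junction and epithelial surface genes 1 was bright, 10 middle and 15 dim. The dim share was 57.7% beside 34.5% of all genes. The bright one was TJP1 (ZO-1), the tight junction scaffold, at 10.88, 10.91 and 10.78. The keratins of simple epithelium were middle, KRT18 at 10.49, KRT8 at 9.66 and KRT7 at 8.04, as was the surface protein EPCAM at 7.86. GRHL2, a factor that keeps the epithelial state, read 3.49, 3.49 and 3.41, and KRT14 and KRT20 averaged 3.31 and 2.96.

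Of 22 mesenchymal genes 8 were dim, or 36.4% beside 34.5% of all genes, 7 were middle and 7 bright. Beside TGFBI, VIM and AXL these were TPM1, a tropomyosin, at 13.17, FN1 (fibronectin) at 12.56, 12.46 and 12.44, CALD1, an actin regulator, at 12.17 and FSTL1 at 11.14. The last was outside the naming rule and was named to complete the 7. TWIST1, a mesenchymal transcription factor, read 2.99, 2.88 and 3.13, TGFB2 averaged 4.02 and TAGLN, a smooth muscle actin-binding protein, averaged 4.11. Other transcription factors of this list were middle, ZEB1 at 9.31, ZEB2 at 7.50 and SNAI2 at 7.39, and SNAI1 was dim at 4.82. These were outside the naming rule and were named because TWIST1 alone does not stand for such factors. The 6 probe sets of FN1 averaged 12.49, 12.48, 12.43, 11.79, 6.30 and 3.93. Without probe sets that bind several transcripts FN1 moved from percentile 98.2 to 17.3.

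Integrins are the receptors for matrix, and 11 of 23 measured were above the reference on all 3 arrays, against 65.5% of all genes. ITGB1, the beta subunit of most of them, read 12.98, 12.94 and 12.87 at percentile 99.1. ITGB5 averaged 12.07, ITGAV averaged 11.70 and ITGAE averaged 11.36. The other 4 probe sets of ITGB1 averaged between 3.64 and 2.37, which is the widest gap of any gene here, and with all 5 averaged its percentile was 28.8. Without probe sets that bind several transcripts it was 2.59. Of 23 integrin genes 4 were bright, 7 middle and 12 dim. ITGA4 and ITGA8 averaged 3.04 and 3.29.

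Matrix genes numbered 7 bright, 16 middle and 14 dim of 37, a dim share of 37.8% beside 34.5% of all genes. COL4A1, a chain of basement membrane collagen, read 13.20, 13.17 and 13.13, COL4A2 averaged 12.88 and VCAN, a large proteoglycan, averaged 12.87. COL3A1, a fibrillar collagen chain of stroma, averaged 3.18, and COL8A1, NID2 and TNC were also dim, at 2.68, 2.93 and 3.49. Of 28 adhesion receptor and focal adhesion genes 8 were bright, 17 middle and 3 dim, with a median percentile of 78.4. CAV1, the coat of caveolae, averaged 13.06 ± 0.064 (SD, n = 3), and ACTN1 and VCL, which tie adhesions to actin, averaged 12.45 and 12.44. The second VCL probe set averaged 4.12, below the reference. PECAM1, the endothelial adhesion receptor, was dim at 4.35, but it was also a marker behind the reference, which largely sets this call.

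**Figure D4:**
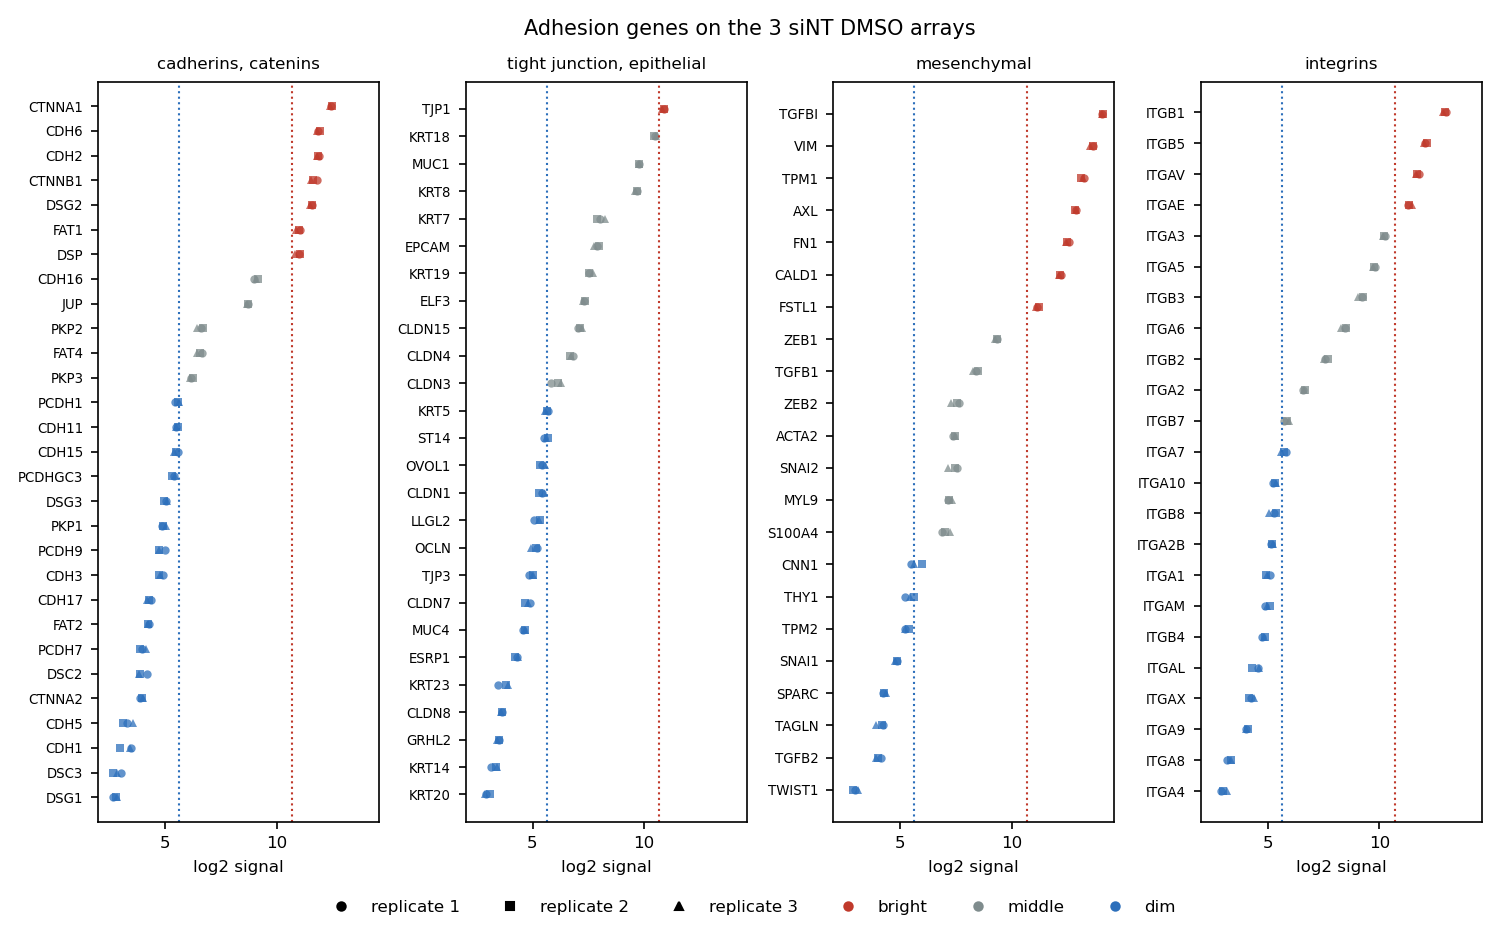
Log2 signal of adhesion genes on the 3 control arrays, one row per gene and one symbol per replicate, with dotted lines at the mean background reference and at the lower limit of the bright band. In the cadherin panel CDH2 lies right of the upper line and CDH1 left of the lower one, at means of 11.85 and 3.28.

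Ferroptosis control was read from cystine import onwards. SLC7A11, the transport subunit of the cystine/glutamate antiporter, read 8.79, 8.87 and 8.88, or 8.85 ± 0.048 (SD, n = 3), at percentile 70.3. GPX4, the peroxidase that reduces lipid hydroperoxides, read 11.70, 11.66 and 11.95, at percentile 96.0 and highest on replicate 3. In the cystine, glutathione and selenium list 8 of 24 genes were bright, 12 middle and 4 dim. PRDX1 averaged 13.58, PRDX6 averaged 12.39 and TXN, thioredoxin, averaged 12.20. SELENOP, a plasma selenium carrier, averaged 2.42 and CBS, which feeds cysteine synthesis, averaged 4.79, both dim.

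Defences outside glutathione were measured above the reference without exception, 5 of 18 bright and 13 middle. HSPA5, an endoplasmic reticulum chaperone, averaged 12.35, HSPB1, a small heat shock protein, averaged 12.30, and STARD7, a lipid transfer protein, averaged 10.96. HMOX1, which degrades haem and frees its iron, read 10.16, 10.18 and 10.10 and was middle. GCH1, which starts tetrahydrobiopterin synthesis, read 7.48, 7.69 and 7.38, and DHODH, which reduces ubiquinone in mitochondria, averaged 6.52. AIFM2 (FSP1) was not analysed here.

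Iron genes had a median percentile of 85.2, with 9 of 19 bright, 8 middle and 2 dim. TFRC, the transferrin receptor, read 12.61, 12.58 and 12.52, and FTL, ferritin light chain, read 13.44, 13.46 and 13.51. NCOA4, which delivers ferritin to the lysosome, averaged 11.88. The importer of iron and the store for it were therefore both bright on all 3 arrays. The dim genes were TF (transferrin) and HAMP (hepcidin), both mainly liver products, at 5.40 and 4.95. FTH1 and the exporter SLC40A1 were not analysed here.

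In the list of peroxidation-prone lipid and oxidase genes, which also holds genes of other kinds, 5 of 28 were bright, 11 middle and 12 dim. The dim share was 42.9% beside 34.5% of all genes. ACSL4, which loads long polyunsaturated fatty acids, read 7.85, 7.80 and 7.64 at percentile 55.9. VDAC3 and VDAC2, the mitochondrial channels described as erastin targets, averaged 12.10 and 12.09. The lipoxygenases ALOX15 and ALOX12B averaged 2.87 and 3.19, and the oxidases DUOX2 and NOX4 averaged 3.38 and 3.47, all dim. CYBA, another oxidase gene of the list, was bright at 11.37, while NOX1, CYBB and DUOX1, outside the naming rule, were dim. EMP1, a membrane protein, read 8.21, 8.25 and 7.88.

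The Hippo pathway restrains the coactivators YAP and TAZ, and 3 of its 16 genes here were bright, 11 middle and 2 dim. WWTR1 (TAZ), the target of the study's siRNA, read 12.33, 12.29 and 12.24 in these control cells, at percentile 97.7. YAP1, its paralog, read 8.55, 8.59 and 8.47, at percentile 66.1. CCN1, a secreted target of both, averaged 12.64 and NF2, an upstream inhibitor, averaged 11.11. Not all listed targets were bright, as CCN2 and ANKRD1 were middle, at percentiles 51.5 and 42.6. CCN2 was outside the naming rule and was named because it is a target. The kinase LATS1 and the scaffold AMOT were dim, at 3.40 and 4.09.

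**Figure D5:**
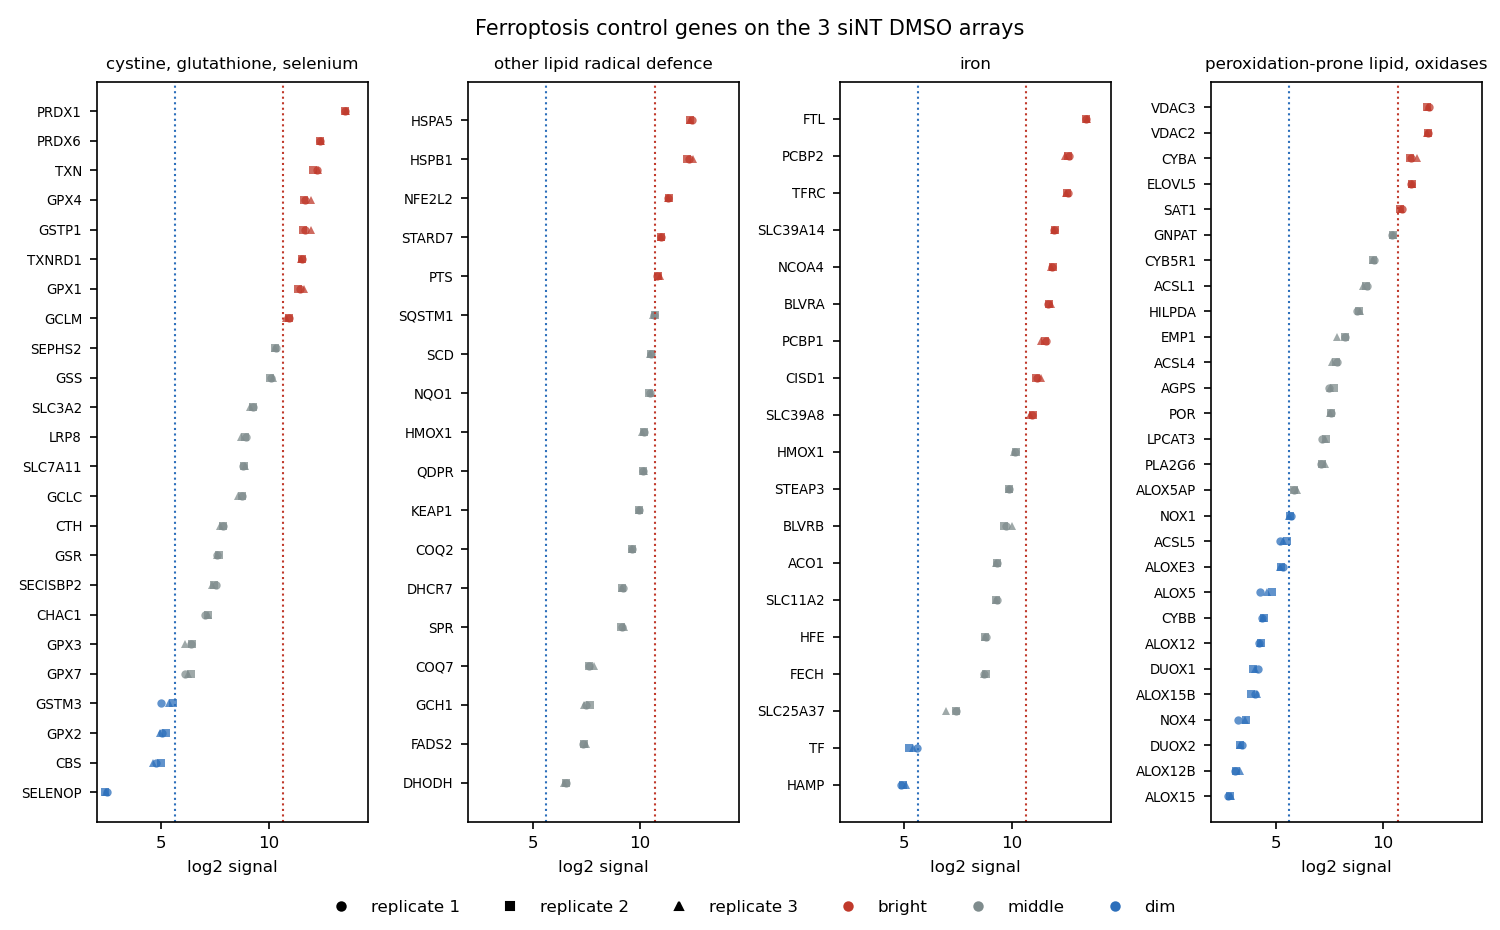
Log2 signal of ferroptosis control genes on the 3 control arrays, one row per gene and one symbol per replicate, with dotted lines at the mean background reference and at the lower limit of the bright band. PRDX1 and FTL lie at the far right, SLC7A11 and ACSL4 in the middle band, and ALOX15 and SELENOP at the far left.

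The replicates differed little. Over all 11963 genes, dim ones included, 182 ranged by more than 0.5 on the log2 scale over the 3 arrays. So did 6 of the 599 listed genes. Over the 7836 genes above the reference, 30 did, and none of the 433 listed genes above it. With so few over all genes above it, this does not set the listed genes apart. Above the reference SGPP1, a sphingosine-1-phosphate phosphatase, varied most, at 7.13, 7.12 and 6.27, then OSMR, the oncostatin M receptor, at 7.09, 7.20 and 6.35. NMD3, ACTBP9, TMEM230, TBL1XR1, YIPF5 and LIG4 were likewise lowest on replicate 3, H2AC25 was lowest on replicate 1 and SOX15 on replicate 2. The count above the reference was 22 without replicate 1, 14 without replicate 2 and 2 without replicate 3. A range over fewer arrays is lower by construction. Replicate 3 had the highest actin 3′ minus 5′ signal and the lowest GAPDH one, and their part in this was not tested.

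Bright genes had a median SD of 0.058, middle genes 0.069 and dim genes 0.111. More than 1 probe set was present for 50.1% of bright, 42.0% of middle and 22.3% of dim genes, and a gene with more probe sets has more chances of a high one. Of the 600 bright genes with more than 1 probe set, 31 had their second at or below the reference.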

How the data were processed

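RNA was measured on Affymetrix 3′ arrays. The log2 signals deposited by the authors come from RMA in Affymetrix Expression Console, as far as the submitters' processing notes say. Neither versions nor a genome build were given in the sources used here. The series text mentions a transformation against the siNT mean that the deposited values do not show. Of 22277 probe sets, 62 controls, 1043 naming several genes and 2108 naming none were left out. Of the other 19064, 19052 were named through the gene identifier in RefSeq's table.

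Arrays were grouped by their titles. Percentiles, limits and promoter matches were computed in Python 3.11.15 with pandas 2.3.3 and tested on simulated data. No test was run, since 1 group has no contrast. The alternatives were the choice of probe set, array centring, the reference, the bright share and leaving out each replicate. Named genes were a fixed set, the 5 highest and 4 lowest of each list, the 20 with the highest signal, the 10 most variable above the reference and the 10 with the widest probe set gap, with exceptions stated. The members and lists were chosen with earlier results of these data known.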

Additional observations from a re-analysis of the deposited data

How the results depend on the processing

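No paired analysis was possible because 1 group is described and no result comes from a test. Over 12 counts, 82 recounts stayed within 1.5 times and 19 did not. All 12 recounts with arrays centred stayed. Centring shifts genes and reference alike, so the bright and dim counts among them could not change. Leaving out probe sets that bind several transcripts (x_at and s_at), which leaves 8369 genes and fewer listed ones (52 in place of 80 for VHL loss, 118 in place of 183 for metabolism, 68 in place of 104 for ferroptosis control), gave 11 bright genes in VHL loss (21 in the main count), 43 in metabolism (73) and 18 in ferroptosis control (30), and 15 dim genes in metabolism (24) and 12 in ferroptosis control (20). With the mean of all probe sets 13 VHL loss genes were bright. With the top 5% as bright, the counts were by construction lower, at 8 for VHL loss, 39 for metabolism, 18 for ferroptosis control and 9 for renal lineage (15). The 75th percentile of the markers as the reference left 3 dim genes in VHL loss (9). The brightest marker, KRT10, as the reference left 1441 genes above it (7836) and made 54 genes dim in VHL loss, 128 in adhesion, 70 in ferroptosis control, 103 in metabolism and 85 in renal lineage. Genes above the reference ranging by over 0.5 numbered 30, and 2 to 22 with 1 replicate left out. The lowest was without replicate 3, and each such range is taken over fewer arrays. Among 48 fixed genes, leaving out a replicate moved no percentile by more than 1.59. Averaging all probe sets moved 41 by more than the SD of their percentile over the 3 arrays, and ITGB1 fell by 70.2. Without x_at and s_at probe sets 30 of the 31 still measured moved, ITGB1 fell by 96.5 and SLC2A1 went from 94.0 to 68.9. Genes with 1 probe set were among those that moved, although their own signal stayed the same and only the other genes changed. ACSL4 went from 55.9 to 63.5 under averaging, and HIF1A from 77.1 to 82.9 without x_at and s_at probe sets. Both counts of moved genes therefore do not measure how far a gene depends on its own probe sets. The number of arrays, and probe set signals near the reference, limit what can be read of dim genes.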
